A study of Mus musculus with 9 samples.

Results

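The costimulatory and checkpoint molecules of B cells were described here as 10 genes, Cd80, Cd86, Cd274, Pdcd1lg2, Icosl, Pdcd1, Ctla4, Lag3, Cd24a and Havcr1, taken by symbol from the 24346 genes listed in each of 9 RNA-seq libraries. All 10 were listed in every library. The libraries came from sorted splenic B cells of wild-type C57BL6 mice, in 3 groups of 3 libraries. The groups were follicular (FO) B cells at 8 weeks of age, called young here, FO B cells at 50 weeks, called aged, and age-associated B cells (ABCs), also at 50 weeks. Per the methods, the FO B cell gate included B220hiCD43-CD23+CD21lo and the ABC gate B220hiCD43-CD23-CD21loCD11b+CD11c+. Each group stood for 3 mice. No treatment is given in the labels of these samples, and ABCs of young mice were not analysed here. The value of a gene is its FPKM, a read count scaled by transcript length and library depth, so that levels can be compared between genes.

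A T cell that meets its antigen on a B cell also reads a second set of signals from ligands of the B7 family. CD80 and CD86 bind CD28, which activates the T cell, and CTLA-4, which restrains it. PD-L1 (Cd274) and PD-L2 (Pdcd1lg2) engage the inhibitory receptor PD-1 (Pdcd1), and ICOS ligand (Icosl) engages ICOS, through which follicular helper T cells are sustained. PD-1, CTLA-4 and LAG-3 are best known as checkpoints of T cells, LAG-3 as a receptor for MHC class II. CD24 (Cd24a) is a small glycosylated surface protein that is abundant on immature B cells, and TIM-1 (Havcr1) is a phosphatidylserine receptor known from regulatory B cells.

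By the GENCODE M21 annotation of GRCm38 (mm10), Cd80 lies on chromosome 16 from 38455561 to 38496335 on the plus strand and Cd86 on the same chromosome from 36603869 to 36666081 on the minus strand. Cd274 and Pdcd1lg2 are neighbours on the plus strand of chromosome 19, with 22823 bases between the end of Cd274 and the start of Pdcd1lg2. Icosl lies on chromosome 10 from 78069302 to 78083913 on the plus strand, Cd24a on the same chromosome from 43578284 to 43584265, and Havcr1 on chromosome 11 from 46735080 to 46779578. All 10 genes are annotated as protein-coding. Cd274 and Pdcd1lg2 each overlap an annotated antisense gene (AC119228.1 and A930007I19Rik) and Ctla4 overlaps the pseudogene Rpl18-ps1. The library kit and the counting were not described as strand-specific, so reads of such overlapping genes cannot be told apart.

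The sequences before a RefSeq transcription start are shown for the ligand gene that differed most in the upward direction (Cd80) and for the one that differed most in the downward direction (Icosl). RefSeq promoters (GRCm38.p6, 250 bases before to 50 bases after the start) were found for 7 of the 10 members. The Cd80 stretch is chr16:38458683-38458932 on the plus strand, its last base just before the RefSeq start. By GENCODE the gene begins at 38455561, so this stretch and its motif lie within the annotated gene, after its annotated start. The capitals mark a match to the AP-1 motif TGANTCA that begins 42 bases before the RefSeq start. The Icosl stretch is chr10:78069118-78069301 on the plus strand and ends where the first exon of GENCODE begins.

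Cd80: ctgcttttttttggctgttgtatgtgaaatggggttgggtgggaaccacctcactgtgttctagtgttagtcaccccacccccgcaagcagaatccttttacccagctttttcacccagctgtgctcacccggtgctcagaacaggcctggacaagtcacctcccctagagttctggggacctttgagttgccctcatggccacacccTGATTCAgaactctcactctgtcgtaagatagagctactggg

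Icosl: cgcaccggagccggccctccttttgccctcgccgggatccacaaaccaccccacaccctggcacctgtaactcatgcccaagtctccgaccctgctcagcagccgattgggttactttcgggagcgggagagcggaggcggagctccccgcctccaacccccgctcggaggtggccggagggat

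The motifs searched on both strands were AP-1 (TGANTCA), the T-box core (AGGTGT) and the interferon-gamma activated site (TTCNNNGAA), none of which holds another. Over the 300-base promoters, matches were found for AP-1 in Cd80 and in 1 of the 3 RefSeq starts of Havcr1, and for the T-box core in Ctla4 and in another start of Havcr1. The Icosl promoter held none of these motifs. Of all 32851 RefSeq promoters of this length, 7.81% held the AP-1 motif, 13.7% the T-box core and 8.30% the interferon-gamma activated site.

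The libraries held about 7260000 to 8830000 mapped reads, as estimated from the smallest steps in the deposited values. Of 7 B lineage transcripts, all were present in all groups, and Cd79a ran from 2462 to 3562 FPKM in the 6 libraries of aged mice. In ABCs, Cd22 was called higher (log2 fold change 1.06) and Pax5 (-0.52) and Ebf1 (-0.74) were called lower than in aged FO B cells. The sort marker transcript Fcer2a, which encodes CD23, was at 697 to 728 FPKM in aged FO B cells and at 0.463 to 6.95 FPKM in ABCs. Of 10 T cell markers, 9 were under 1 FPKM in every ABC library, with a highest value of 0.911 FPKM, and Cd4 and Foxp3 were at or near 0. The exception, named after its values were seen, was Cd3g, at 9.63, 37.0 and 4.93 FPKM in ABC libraries 1, 2 and 3. The summed level of 11 macrophage, monocyte and dendritic cell markers was 20.4 to 29.0 FPKM in ABCs and 11.5 to 16.7 FPKM in aged FO B cells, with Fcgr1, Mertk and Cd14 near 0 in both. Of the 5 of these markers above the filter, Cd68 (log2 fold change 1.13) and Zbtb46 (1.21) were called higher in ABCs, and their part in the results below was not tested. Of 8 NK cell markers, Ncr1, Gzma, Eomes, Klrb1c and Klrk1 were at or under 0.303 FPKM in every ABC library. Prf1 was at 24.1 to 38.0 FPKM there. Klrd1 was at 2.99, 3.21 and 0 FPKM and Nkg7 at 2.03, 1.84 and 0.202 FPKM in ABC libraries 1, 2 and 3. In aged FO B cells these were at most 0.517 and 0.187 FPKM, and Klrd1 reached 1.73 FPKM in young FO B cells. The part of any NK cells in the results below was not tested. The summed level of 6 plasma cell markers was 191 to 225 FPKM in ABCs and 129 to 148 FPKM in aged FO B cells. Xbp1, which was not called, held most of this sum. Of the 5 plasma cell markers above the filter, Jchain (log2 fold change 2.34), Prdm1 (1.97) and Sdc1 (1.82) were called higher in ABCs. The part of any plasma cells in the results below was not tested. ABC library 3 was the least like its group, with a mean correlation to the other ABC libraries of 0.961 across 10375 genes, against 0.969 to 0.976 for the other libraries within their groups.

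To learn which of these molecules differ between ABCs and FO B cells of the same age, log2(FPKM + 1) was compared with limma over the 10412 genes whose mean reached 1 FPKM, and a gene was called at a Benjamini-Hochberg false discovery rate (FDR) under 0.05. In ABCs, Cd80, Cd86, Pdcd1lg2, Ctla4 and Havcr1 were higher, Icosl and Cd24a were lower and Cd274 was not called. Pdcd1 and Lag3 fell below the filter on low values. In all, 7 of the 8 members tested were called, where 35.9% of all genes tested were called, and of these 5 were higher and 2 lower, against 19.4% and 16.5% of all genes. Cd80 and Ctla4 reached the filter only through the ABC libraries in which they were high, so this count is a description, and of the 6 others 3 were higher and 2 lower. A two-sided exact permutation test of each member's mean FPKM gave p = 0.1 for 9 members, the smallest value that 3 against 3 libraries allow, and p = 0.8 for Cd274.

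**Figure D1:**
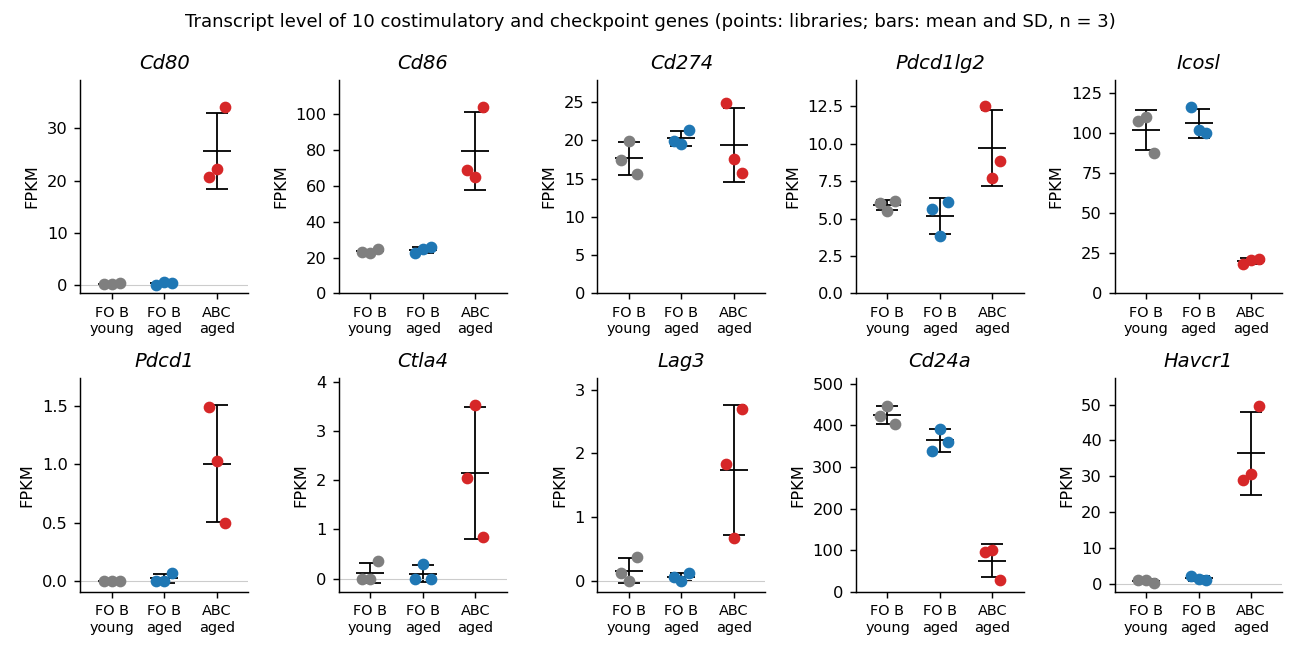
FPKM (y axis, linear, each panel with its own scale) of the 10 genes in each of the 9 libraries, with points for libraries and bars for mean and SD (n = 3) in young FO B cells, aged FO B cells and ABCs. Cd80 and Havcr1 were near the bottom of the scale in both FO B groups and at 20.7 FPKM or more in ABCs, whereas Icosl and Cd24a were lower in all 3 ABC libraries than in any FO B library.

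Cd80 had the largest log2 fold change of the members against aged FO B cells. Its transcript was almost absent from FO B cells, at 0.0826, 0.475 and 0.378 FPKM in aged mice and 0.151, 0.153 and 0.380 FPKM in young mice, and stood at 20.7, 22.2 and 34.0 FPKM in ABCs. All 3 ABC libraries lay far above the FO B libraries, and the FO B groups overlapped. In recovered reads, these values were 1, 7 and 5 reads in aged FO B cells and 253, 300 and 419 reads in ABCs. The mean was 82.3-fold higher in ABCs, with a log2 fold change on the log2(FPKM + 1) scale of 4.32 (SE 0.21, FDR = 2.28e-05, limma). From 13 reads over the FO B group, the ratio of reads per depth was 78.8, with a 95% interval for counting error of 45.9 to 149.

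Cd86, the second ligand of CD28 and CTLA-4, was already present in FO B cells. It was at 22.9, 22.7 and 24.5 FPKM in young mice, at 22.3, 24.6 and 25.8 FPKM in aged mice and at 69.1, 65.2 and 104 FPKM in ABCs. The FO B libraries overlapped with each other, and the lowest ABC library was above all of them. The mean was 79.5 ± 21.5 FPKM (SD, n = 3) in ABCs and 24.2 ± 1.80 FPKM in aged FO B cells, which is 3.28-fold higher (log2 fold change 1.65, SE 0.17, FDR = 0.000543, limma).

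The balance of these 2 ligands was compared as well. Within single libraries, the FPKM of Cd86 was 51.7 to 270 times that of Cd80 in aged FO B cells and 2.93 to 3.33 times in ABCs. On the scale of log2(FPKM + 1), the difference Cd86 minus Cd80 was 4.27 ± 0.16 (SD, n = 3) in aged FO B cells and 1.60 ± 0.09 in ABCs. This log2 difference fell by 2.68, without overlap, at the smallest p that the exact permutation test can give (0.1). With a pseudocount of 0.1 in place of 1 it fell by 4.41, since the low Cd80 values of FO B cells weigh on this quantity. Both genes were higher in ABCs, Cd80 by the larger factor.

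Of the 2 ligands of PD-1, Pdcd1lg2 was called and Cd274 was not. Cd274 was at 17.4, 19.9 and 15.6 FPKM in young FO B cells, at 19.9, 19.5 and 21.4 FPKM in aged FO B cells and at 24.9, 17.6 and 15.7 FPKM in ABCs. Of the ABC libraries, 1 lay above and 2 lay below the aged FO B libraries. The log2 fold change was -0.09, with a 95% interval of -0.46 to 0.29 (FDR = 0.702, limma), and it changed sign without ABC library 3 (0.04) or with upper quartile scaling (0.09). The interval left out a log2 difference of 1 in either direction.

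Pdcd1lg2, which encodes the second and more restricted PD-1 ligand, was at 5.64, 3.81 and 6.10 FPKM in aged FO B cells and at 12.5, 7.70 and 8.86 FPKM in ABCs. Its lowest ABC library was above the highest library of FO B cells, which in young mice were at 6.07, 5.50 and 6.14 FPKM. The mean was 1.87-fold higher in ABCs (log2 fold change 0.79, SE 0.21, FDR = 0.0253, limma). This call was lost under several settings, with an FDR of 0.0574 with no filter on low values, 0.0571 without FO B library 1, 0.0710 without FO B library 2 and 0.0680 without ABC library 1. The log2(FPKM + 1) difference Cd274 minus Pdcd1lg2 was 1.80 ± 0.25 (SD, n = 3) in aged FO B cells and 0.93 ± 0.17 in ABCs, and it dropped by 0.87 with no overlap (exact permutation p = 0.1).

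Pdcd1lg2 is also known from B-1 cells, and markers of these cells stood beside it. All 5 genes of a B-1 cell list (Zbtb32, Bhlhe41, Spn, Cd9 and Cd5) were higher in ABCs, with a summed level of 265 to 317 FPKM there and 12.2 to 17.7 FPKM in aged FO B cells. For Cd5 the FDR was 0.0383 by limma, 0.0669 with no filter and 0.0861 against young FO B cells. Of the ABC libraries, the B-1 sum was highest in library 3 and Pdcd1lg2 in library 1. Spn encodes CD43, against which the sort selected, and the part of B-1 cells in the Pdcd1lg2 values was not tested.

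Icosl differed in the opposite direction from Cd80 and Cd86. It was the most abundant of the B7 ligands in FO B cells, at 108, 110 and 87.6 FPKM in young mice and 116, 102 and 100 FPKM in aged mice, and was at 18.2, 21.1 and 21.4 FPKM in ABCs. The highest ABC library was far below the lowest FO B library, and libraries within each group were close. The mean was 5.24-fold lower in ABCs (log2 fold change -2.33, SE 0.09, FDR = 1.24e-05, limma).

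The 5 ligands summed to similar levels in ABCs and aged FO B cells and differed in make-up. Their summed FPKM was 156 ± 7.35 (SD, n = 3) in aged FO B cells and 155 ± 26.5 in ABCs. Icosl made up 67.9% of this sum in aged FO B cells and 13.3% in ABCs, while Cd86 made up 15.6% and 50.9% and Cd80 0.204% and 16.4%. Cd274 held 12.1% to 13.9% of the sum in aged FO B cells and 8.53% to 17.1% in ABCs, and Pdcd1lg2 3.31% and 6.40% on average. These shares describe transcripts per length and were not tested, and fewer cells with a transcript cannot be told apart from less of it per cell in bulk libraries.

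**Figure D2:**
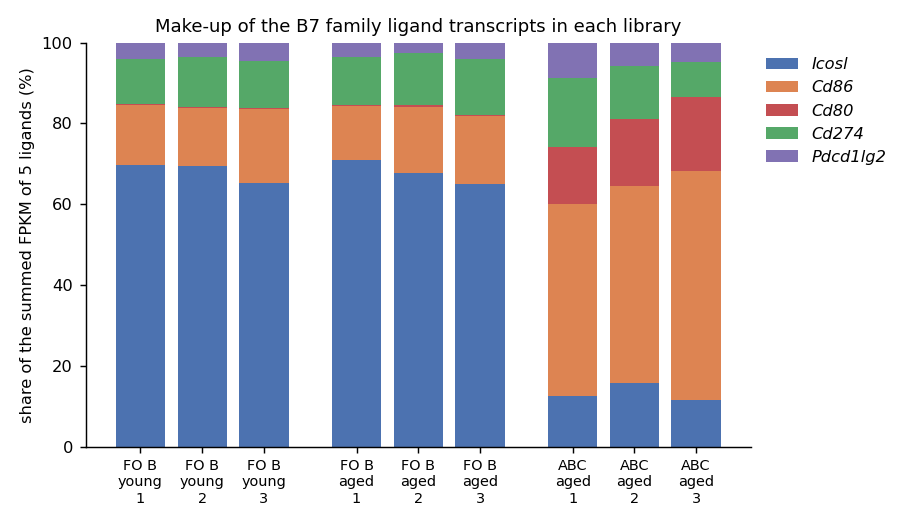
Share (y axis, percent) of Icosl, Cd86, Cd80, Cd274 and Pdcd1lg2 in the summed FPKM of these 5 ligand genes, with 1 stacked bar for each of the 9 libraries. Icosl held 65.1% or more in every FO B library, and Cd86 with 47.5% to 56.6% was the largest share in every ABC library.

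The inhibitory receptors among the members, Pdcd1, Lag3 and Ctla4, were low in all groups. Pdcd1 was listed at 0 in all FO B libraries except 1 of aged mice (0.0654 FPKM) and was at 1.49, 1.03 and 0.492 FPKM in ABCs, which corresponds to 21, 16 and 7 reads. The ratio of reads per depth between ABCs and aged FO B cells was 46.4, on 44 reads against 1, with a counting interval of 7.90 to 1873. Against young FO B cells, which had no read, the ratio was 15.2 with a floor of 3 reads set for the group. This value leaves out the counting error of the 44 reads in ABCs.

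Lag3 was at 0.126, 0 and 0.379 FPKM in young FO B cells, at 0.0686, 0 and 0.125 FPKM in aged FO B cells and at 1.84, 0.677 and 2.70 FPKM in ABCs. In reads these were 3 over the aged FO B libraries and 78 over the ABC libraries, a ratio per depth of 27.4 with a counting interval of 9.04 to 136. The ABC libraries of Pdcd1 and Lag3 lay above all FO B libraries. With no filter on low values, the limma FDR was 0.016 for Pdcd1 and 0.0234 for Lag3, and 8 of the 10 members had an FDR under 0.05 where 18.5% of 18877 genes did. The 2 others were Cd274 and Pdcd1lg2.

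Ctla4 was listed at 0 in 4 of the 6 FO B libraries and at 0.351 and 0.294 FPKM in the other two, and was at 2.05, 3.52 and 0.843 FPKM in ABCs. The groups did not overlap, and the ABC libraries spread widely, with library 2 the highest and library 3 the lowest. The log2 fold change against aged FO B cells was 1.43 (SE 0.33, FDR = 0.0143, limma), and the FDR was 0.0536 without FO B library 1 and 0.0516 without FO B library 3. Ctla4 fell below the filter, and so was not tested, without ABC library 1 or 2 and with all 9 libraries in the fit. Whole reads could not be recovered for Ctla4, so that no interval for counting error is given.

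The 3 receptors are known from T cells, and the level of Cd3g in the ABC libraries stands beside them. Cd3g and Ctla4 were both highest in ABC library 2 and lowest in library 3, whereas Pdcd1 was highest in library 1 and Lag3 in library 3. The defining T cell transcript Cd3e was at 0.0996, 0 and 0 FPKM in the ABC libraries. Of the other T cell markers, Cd3d (0.545, 0.592 and 0 FPKM), Lat (0.239, 0.864 and 0 FPKM) and Bcl11b (0.102, 0.139 and 0.0169 FPKM) had the library order of Ctla4. Cd8b1, Cd8a and Cd247 were, like Cd3e, highest in library 1, Cd4 was highest in library 3, and Foxp3 was at 0. Cd28 and Icos, the T cell receptors of the stimulatory ligands, were at most 0.188 and 0.0724 FPKM in ABCs. The part of any T cells in the values of the 3 receptors was not tested.

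Cd24a was one of the most abundant transcripts of FO B cells. It was at 423, 446 and 404 FPKM in young mice, above 97.1% or more of expressed genes in every FO B library, at 338, 392 and 361 FPKM in aged mice and at 95.5, 100.8 and 28.6 FPKM in ABCs. All ABC libraries were below all FO B libraries, and ABC library 3 was the lowest by a wide margin. The mean was 4.85-fold lower in ABCs (log2 fold change -2.46, SE 0.44, FDR = 0.0049, limma), and the log2 fold change was -1.88 without ABC library 3.

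Other transcripts moved with Cd24a across the ABC libraries. Vpreb3, known from B cell precursors and the most abundant transcript of the transitional B cell marker list, was at 95.7, 140 and 28.03 FPKM in ABC libraries 1, 2 and 3 and at 384 to 475 FPKM in aged FO B cells. Fcer2a was at 4.15, 6.95 and 0.463 FPKM and Cr2, which encodes CD21, at 4.93, 8.39 and 0.745 FPKM in the ABC libraries. In each of these genes library 3 was the lowest, as for Cd24a. Myb, of the same marker list, had a log2 fold change of 0.76 and was not called (FDR = 0.107, limma). Cd93 and Rag1, also of this list, fell below the filter. Cd93 was at 0.473, 0.154 and 0.0188 FPKM in the ABC libraries and at 0.573 to 1.18 FPKM in aged FO B cells. Rag1 was at 0.132, 0.0171 and 0.0374 FPKM in the ABC libraries, with library 2 the lowest. The ABC gate was set to leave out transitional B cells, and the part of any residual CD23+ or immature cells in the Cd24a values of ABCs was not tested.

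Havcr1 was near the limit of expression in FO B cells and well expressed in ABCs. It was at 1.02, 1.03 and 0.205 FPKM in young FO B cells, at 2.15, 1.40 and 0.882 FPKM in aged FO B cells and at 28.9, 30.6 and 49.7 FPKM in ABCs. The FO B groups overlapped, and the lowest ABC library was far above both. The mean was 24.6-fold higher in ABCs (log2 fold change 3.90, SE 0.26, FDR = 7.84e-05, limma). ABC library 3 was the highest for Havcr1, Cd80, Cd86, Icosl and Lag3 and the lowest for Cd24a, Cd274, Pdcd1 and Ctla4.

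**Figure D3:**
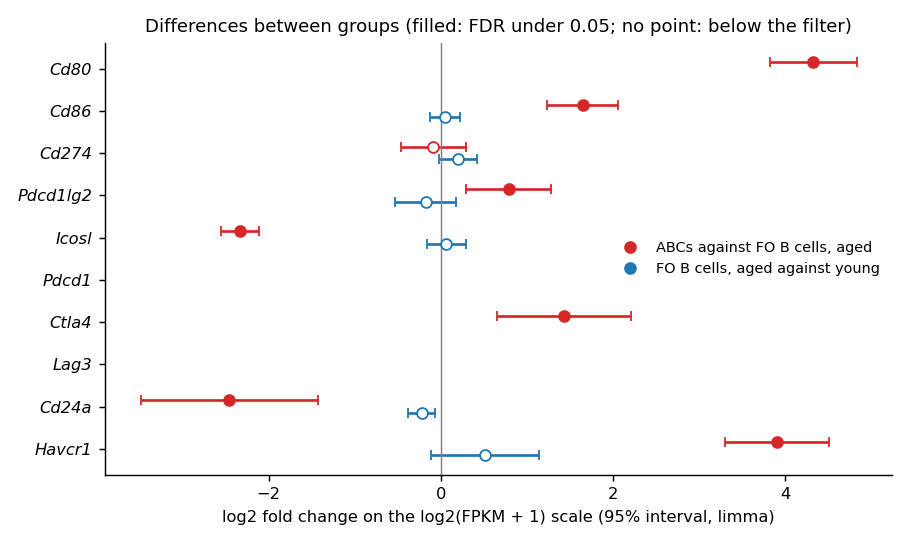
Log2 fold change on the log2(FPKM + 1) scale (x axis) with its 95% interval from limma for the members tested, for the ABC comparison and the comparison of FO B ages, with filled points for an FDR under 0.05. The ABC points run from -2.46 for Cd24a to 4.32 for Cd80, whereas all 6 points of the FO B comparison are open.

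A stricter rule asked for a log2 fold change beyond 2.3 in size at an FDR under 0.01. By this rule 4 of the 8 members tested were called (Cd80, Icosl, Cd24a and Havcr1), where 1.92% of all genes tested were called. The 3 ABC libraries did not overlap the 3 FO B libraries of aged mice in 9 of the 10 members, Cd274 being the exception. Among the 8 members above the filter this was 7, and 52.6% of all genes above the filter did not overlap. Cd80, in both counts, and Ctla4, in the second, reached the filter only through the ABC libraries, so these counts are a description.

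To learn whether FO B cells themselves differed with age, aged and young FO B cells were compared in the same way. None of the 6 members above the filter was called by limma, where 0.464% of 10122 genes were called. At an unadjusted p under 0.05, where 12.8% of all genes lay, there was 1 member, Cd24a, with a log2 fold change of -0.22 (95% interval -0.38 to -0.07, FDR = 0.217, limma). Its aged libraries did not overlap the young ones, which held for 1 of the 10 members and for 18.6% of all genes above the filter. The log2 fold change was 0.05 for Cd86 (95% interval -0.13 to 0.23) and 0.06 for Icosl (95% interval -0.16 to 0.29). It was 0.20 for Cd274 (95% interval -0.03 to 0.42), -0.18 for Pdcd1lg2 (95% interval -0.54 to 0.18) and 0.51 for Havcr1 (95% interval -0.11 to 1.13). The intervals of Cd86, Cd274 and Icosl thus left out a log2 change of 1 in either direction, while that of Havcr1 did not.

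Against young FO B cells, the ABCs gave the same picture, although the same ABC libraries enter and the comparison mixes cell type with age. Of 8 members tested, of which Cd80, Ctla4 and Havcr1 reached the filter only through the ABC libraries, 5 were higher and 2 lower, where 40.7% of all genes tested were called, 21.6% higher and 19.1% lower. The log2 fold change was 4.41 for Cd80, 4.41 for Havcr1, 1.69 for Cd86, 0.61 for Pdcd1lg2, -2.27 for Icosl and -2.68 for Cd24a. For Pdcd1lg2 the FDR was 0.0257, and it was 0.0574 with no filter on low values, 0.0516 with upper quartile scaling and from 0.0637 to 0.0838 without any 1 of the young FO B libraries. For Ctla4 the FDR was 0.0141, and it was 0.0515 or 0.0514 without young FO B library 1 or 2. By the stricter rule 3 members were called, against 2.2% of all genes. Libraries of 9 members did not overlap, 7 of the 8 above the filter, against 55.3% of genes.

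Other genes of the same pathways were described from a list of 45 genes, of which 25 were above the filter in ABCs and aged FO B cells. Of these, 10 were higher in ABCs, 6 were lower and 9 were not called, where 19.4% of all genes tested were higher and 16.5% lower. Cd200r1, Tnfsf4, Cd70 and Timd2 reached the filter only through the ABC libraries, and of the 21 other genes 6 were higher and 6 lower. Between aged and young FO B cells, 0 of the 22 genes tested were called by limma (lowest FDR 0.109), and 6 had an unadjusted p under 0.05, where 12.8% of all genes did (Btla, Tnfsf9, Cd27, Lgals9, Lgals3 and Cd83).

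In the group of the B7 and CD28 family, with Tnfrsf14, Cd200 and Cd200r1 listed beside it, 3 of 6 tested genes were higher and 2 lower. Of all genes tested, 19.4% were higher and 16.5% lower, and Cd200r1 reached the filter only through the ABC libraries. Cd200r1, the inhibitory receptor for CD200, was at 0.146, 0.0602 and 0 FPKM in aged FO B cells and at 10.4, 6.11 and 10.7 FPKM in ABCs (log2 fold change 3.20, FDR = 9.93e-05, limma). Its ligand gene Cd200 differed in the other direction, from 56.8 to 60.4 FPKM in aged FO B cells to 21.7 to 25.6 FPKM in ABCs (log2 fold change -1.25). The checkpoint VISTA, listed by the older symbol 4632428N05Rik, was higher by 1.93 and Cd276 (B7-H3) by 1.29 on the log2 scale. Btla, an inhibitory receptor of B and T cells, was lower by a log2 fold change of -0.85, and its partner Tnfrsf14 was not called (-0.02).

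In the TNF family, 2 of 5 tested genes were higher, where 19.4% of all genes tested were higher. These 2, Tnfsf4 and Cd70, reached the filter only through the ABC libraries, and Tnfsf9, Tnfrsf4 and Cd40 were not called. Tnfsf4, the OX40 ligand, was at 0.0880, 0 and 0 FPKM in aged FO B cells and at 6.19, 5.60 and 2.86 FPKM in ABCs (log2 fold change 2.47, FDR = 0.000481, limma). Cd70, the ligand of CD27, was listed at 0 in all FO B libraries of aged mice and was at 2.33, 0.351 and 3.46 FPKM in ABCs. Its FDR was 0.0329 by limma and 0.0605 with no filter on low values. Cd40, through which T cells help B cells, was at 147 to 166 FPKM in aged FO B cells and 144 to 155 FPKM in ABCs and was not called.

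Of the nectin and TIGIT group only Pvr, which encodes the TIGIT ligand CD155, was above the filter, and it was higher in ABCs (log2 fold change 1.86, FDR = 0.00116, limma). In the group of TIM proteins and galectins, 3 of 4 tested genes were higher, where 19.4% of all genes tested were higher. Of these 3, Timd2 reached the filter only through the ABC libraries. Timd2, which lies 28018 bases before Havcr1 on chromosome 11, was at 0.0452, 0.172 and 0.382 FPKM in aged FO B cells and at 3.60, 5.28 and 5.13 FPKM in ABCs (log2 fold change 2.24). Lgals3, which encodes galectin-3, was higher by 3.16, and Ceacam1, a binding partner of TIM-3, by 0.51. Lgals9 (galectin-9) was lower, at 172 to 199 FPKM in aged FO B cells and 80.3 to 134 FPKM in ABCs (log2 fold change -0.82).

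The list around CD24 held Siglecg and the selectin pathway genes Selp and Selplg. Siglecg, the inhibitory lectin that binds CD24, was lower in ABCs by a log2 fold change of -0.71. Selplg was higher by 0.81, and Selp fell below the filter. Siglecg was at 274, 200 and 166 FPKM in ABC libraries 1, 2 and 3, with library 3 again the lowest. Adam10 and Adam17, proteases that shed LAG-3, were not called. Of 5 tested regulators of surface levels, 2 were lower, where 16.5% of all genes tested were lower. March1, a ubiquitin ligase that removes CD86 and MHC class II from the surface, had a log2 fold change of -0.42, and Cmtm6, which stabilises PD-L1 protein, one of -0.20. Cd83, Lrba and Sppl2a were not called.

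**Figure D4:**
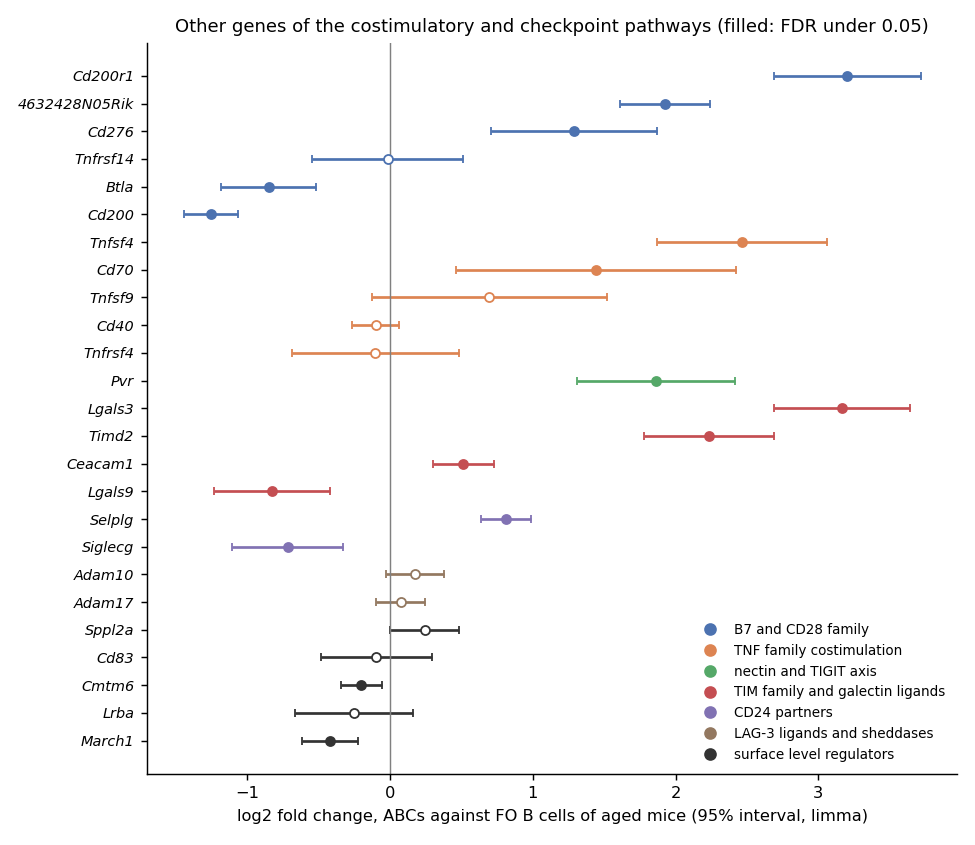
Log2 fold change on the log2(FPKM + 1) scale between ABCs and aged FO B cells (x axis) with its 95% interval from limma for the 25 tested genes of the pathway list, coloured by group, with filled points for an FDR under 0.05. Cd200r1 (3.20) and Lgals3 (3.16) lie farthest to the right, and Cd200 (-1.25) farthest to the left.

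The genes whose level across the 9 libraries was most like that of each member whose mean reached 1 FPKM were read from Pearson's r of log2(FPKM + 1) over 10375 genes. The 9 points share 3 groups and 1 library preparation, and the values are a description. For Cd80 these genes were Sox5, Gas7 and Gm1965 (r = 0.998 each), which were at 4.04, 3.69 and 22.9 FPKM in ABCs and at or under 0.267 FPKM in FO B cells. For Cd86 they were Msc, Nrp2 and Il4 (r = 0.997 to 0.998). Msc was at 14.3, 14.0 and 46.1 FPKM in ABC libraries 1, 2 and 3, with library 3 the highest, as for Cd86. Il4, which encodes a cytokine, was listed at 0 in the FO B groups and at 2.498, 2.26 and 5.27 FPKM in ABCs.

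For Icosl the genes reported are Rasa2 and Rasgef1b (r = 0.995 each). Rasa2 was at 20.6 FPKM in aged FO B cells and 8.90 FPKM in ABCs, and Rasgef1b at 95.1 and 17.8 FPKM. For Cd24a they were Coro1a, Id3 and Parp8 (r = 0.996 to 0.999), and Id3, an inhibitor of E protein transcription factors, was at 51.0, 46.2 and 11.1 FPKM in ABC libraries 1, 2 and 3 and at 303 FPKM in aged FO B cells. For Havcr1 they were Prr13, Ackr2 and Man1a2 (r = 0.996 to 0.997), of which Ackr2, a chemokine scavenger receptor, was at 2.31 and 38.3 FPKM. For Pdcd1lg2 they were Tgfbr2, Ncoa3 and Pgm1 (r = 0.957 to 0.963). For Cd274 they were Tbrg1, Dock9 and Naa16, with an r of 0.852 to 0.882.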

How the data were processed

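Per the labels, the 9 libraries were made from sorted splenic B cells with a SMART-Seq HT kit and Nextera libraries and read as single-end reads on an Illumina NovaSeq. The authors deposited FPKM values, 1 per gene and library. The submitters' processing notes name TopHat2 2.1.1, Bowtie2 2.2.8, SAMtools 0.1.18 and Cuffdiff 2.2.1 on mm10, and the methods name other versions of these tools with Cufflinks. The gene annotation and any scaling between libraries are not given in the sources used here. FPKM divides by length and depth, so that a few abundant genes can shift all others.

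The 6 libraries of each comparison entered a limma 3.58.1 fit of log2(FPKM + 1) in R 4.3.3 (lmFit, eBayes with a trend). Genes whose mean was under 1 FPKM were left out, with Benjamini-Hochberg adjustment over all genes tested. Fold changes on this scale understate changes of low genes. Whole reads were recovered from the step between low values for 7 of the members, not for Pdcd1lg2, Ctla4 or Havcr1, and were used only for floors and counting intervals, which cover counting error only. The scripts were tested on simulated data. Python 3.11.15 and scipy 1.17.1 gave the exact permutation tests.

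The members and all lists were chosen with earlier results of these data known. Named were all members, every called gene of the pathway list, examples of its other genes, and the 3 genes most like each member, of which 1 is not reported here. Marker genes were named beside the results they touch, after their values were seen. The labels do not say that libraries are separate animals, while a figure legend gives 3 mice per group. The p-values measure the spread between these libraries. Alternatives were pseudocounts of 0.1 and 0.01, no filter, other scalings, all 9 libraries in 1 fit, no trend, a replicate block, stricter thresholds, and leaving out each library.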

Additional observations from a re-analysis of the deposited data

How the results depend on the processing

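The labels do not say whether same-numbered libraries came from the same mouse, and 3 libraries per group cannot decide it. For differently numbered libraries, the correlation of deviations ran from -0.108 to 0.0589 (ABCs and aged FO B cells) and from -0.105 to 0.157 (aged and young FO B cells). The correlation of deviations from the group means was 0.0845, -0.019 and 0.108 for same-numbered ABC and aged FO B libraries and -0.0541, 0.138 and -0.0921 for aged and young FO B libraries (10375 genes), and with the replicate number as a block 7, 0 and 7 members were called in ABCs against aged FO B cells, aged against young FO B cells and ABCs against young FO B cells, as without it. The stricter thresholds left 4 and 3 members called in the ABC comparisons. With a pseudocount of 0.1, the Cd86 to Cd80 log2 difference changed by -4.41, -0.19 and -4.60 in the 3 comparisons in the same order, which follows from the low Cd80 values. Signs turned only for values that were not called. Upper quartile scaling moved the median of all genes by 0.162 (ABCs against aged FO B cells) and -0.118 (aged against young), and gave log2 fold changes of 0.0879 for Cd274 in the first and of -0.0782 for Cd86 and -0.0657 for Icosl in the second. With libraries left out in turn, Cd274 ran from -0.271 (without ABC library 1) to 0.0437 (without ABC library 3) against aged and from -0.0747 to 0.240 (without the same libraries) against young FO B cells. Icosl, aged against young, ran from -0.0408 (without young library 3) to 0.123, with -0.00451 without aged library 1, and the Cd86 to Cd80 difference ran from -0.117 to 0.0386 (without aged library 2). The cause of these changes was not tested. Between 5 and 7 of the members were called in either ABC comparison with any 1 library left out, and 6 with all 9 libraries in the fit. Calls lost for Pdcd1lg2 and Ctla4 are given beside their values. At about 7 to 21 reads per ABC library, Pdcd1 is limited by depth.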
